A study of Mus musculus with 17 samples.

Results

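The caspases, the BCL2 family, the gasdermins and the proteins that work with them carry out regulated cell death, and 40 mouse genes of this kind were followed in the colon. They were taken by gene family and pathway, with earlier results of these data known, covering apoptosis, necroptosis and pyroptosis. All 40 were found among the 23719 entries of the count table. The study modelled Gulf War Illness (GWI) in male C57BL/6 mice aged 32 to 34 weeks. The 8 GWI mice drank water with pyridostigmine bromide (PB), a reversible acetylcholinesterase inhibitor, at 2 mg/kg for 7 days and then recovered for 21 days, and the 9 Control mice were not given PB. Colon was taken at day 30, so the comparison concerns tissue 3 weeks after dosing ended, and PB alone stands for the exposure in this model. RNA from colon tissue was sequenced in bulk, with 1 library per mouse.

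Total counts ran from 16293537 to 20741212 per mouse. Levels are given as CPM, the counts relative to library size after scaling with edgeR's TMM factors. The filter on low counts left 14146 genes to test, among them 39 of the 40 members. Bcl2l15 failed it. Unless another fit is named, log2 fold changes (GWI over Control, ± SE) and Benjamini-Hochberg adjusted p-values are from edgeR's quasi-likelihood test on all 17 mice, and a gene is called where the adjusted p is under 0.05.

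Several Control libraries stood apart from the rest. Control 9 had the lowest TMM factor, 0.799, and its 10 most abundant genes took 23.1% of its counts, against 9.72% to 17.3% in the other mice. This mouse was the highest of all 17 for 10 of the 39 tested members and the lowest for 7. Control 1 was the highest for 6 members and the lowest for 7, and on the second principal component of all tested genes it was the only Control mouse on the side of the GWI mice (18.3, with the other Controls between -37.0 and -17.2 and GWI between 7.48 and 35.3). Control 6 and Control 7 carried markers of small intestine. The summed level of the 8 small intestine markers was 425 CPM in Control 6 and 917 CPM in Control 7, and 20.4 to 93.5 CPM in each of the other 15 mice. In Control 6 and Control 7, Lyz1 had 4263 and 5984 counts, Fabp6 2677 and 5695, Defa24 1364 and 2174, and Apoa1 647 and 2409. Apoa4, Apoc3 and Lct had at most 13 counts in these mice. Alpi, at 639 and 333 counts, did not set them apart, since the other mice ran from 122 to 1420. Over all mice Alpi was the most abundant (called higher, with Fabp6 and Lyz1 lower, the other 5 untested). Apoa4, Apoc3, Lct and Defa24 were at 0 in some mice.

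Markers of epithelium and muscle also differed between the groups. The 11 colon epithelium markers were detected in every mouse. Their summed level was 32705 ± 5888 CPM (SD, n = 9) in Control and 38022 ± 6577 CPM (SD, n = 8) in GWI. Car1 was the most abundant over all mice, though Muc2 had more counts in some mice of both groups. Of the 11 markers, 4 were called higher in GWI and 0 lower. The 10 smooth muscle markers summed to 12057 ± 6724 CPM (SD, n = 9) in Control and 6115 ± 2701 CPM (SD, n = 8) in GWI. Myh11 was the most abundant of them, none was at 0, 7 were called lower and all 10 had a negative log2 fold change. Control 2, 3, 7, 8 and 9 lay within the GWI range of this sum (3658 to 11832 CPM). In bulk tissue, fewer cells of a type and less RNA per cell cannot be told apart. The part of these markers in the member results was examined only through a covariate. This was the mean log2 CPM of the muscle list minus that of the epithelium list. The covariate ran from -1.95 to 0.552 in Control and from -2.55 to -0.970 in GWI. Only Control 8 and Control 9 lay within the GWI range. Because the covariate differed with the group, a fit with it cannot tell tissue composition from treatment.

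Caspases are cysteine proteases made as inactive precursors. In the mitochondrial pathway of apoptosis, BH3-only proteins neutralise BCL2 and its relatives, BAX and BAK then open the outer mitochondrial membrane, and released cytochrome c assembles with APAF1 into the apoptosome that activates caspase-9. Death receptors instead act through FADD and caspase-8, necroptosis runs through RIPK3 and MLKL, and in pyroptosis inflammatory caspases cut gasdermin D, whose fragment makes pores in the plasma membrane. In the gut these routes contribute to the steady loss of epithelial cells and to defence against bacteria that enter the mucosa.

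Among the 39 tested members, 12 were called, which is 30.8% of them, beside 26.8% of all tested genes. Higher in GWI were 9 members (23.1%, beside 13.4% of all genes), namely Casp2, Casp9, Bak1, Bcl2l11, Bbc3, Apaf1, Birc3, Ripk3 and Gsdmd. Lower were 3 members (7.69%, beside 13.5%), namely Casp12, Bcl2 and Diablo. The total share was thus near the background, and more members were higher than lower. With the muscle minus epithelium covariate this was not so, with 6 members higher and 7 lower (11.2% and 15.3% of all genes). The median log2 fold change was 0.21 over the 39 members and -0.056 over all tested genes, and 24 members (61.5%) against 44.8% of all genes had a positive value. The members were chosen with earlier results of these data known, so these shares describe the list and were not tested. The changes were small, with a median absolute log2 fold change of 0.27 in the members and 0.29 in all genes. With an absolute log2 fold change past 1 and an unadjusted p below 0.05, edgeR called 0 members and 2.42% of all genes. In edgeR, an unadjusted p under 0.05 alone held for 18 of the 39 members and 5851 of the 14146 tested genes. Groups did not overlap at all for 2 members, Casp9 and Casp12 (5.13%, beside 2.35% (333) of all genes).

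**Figure D1:**
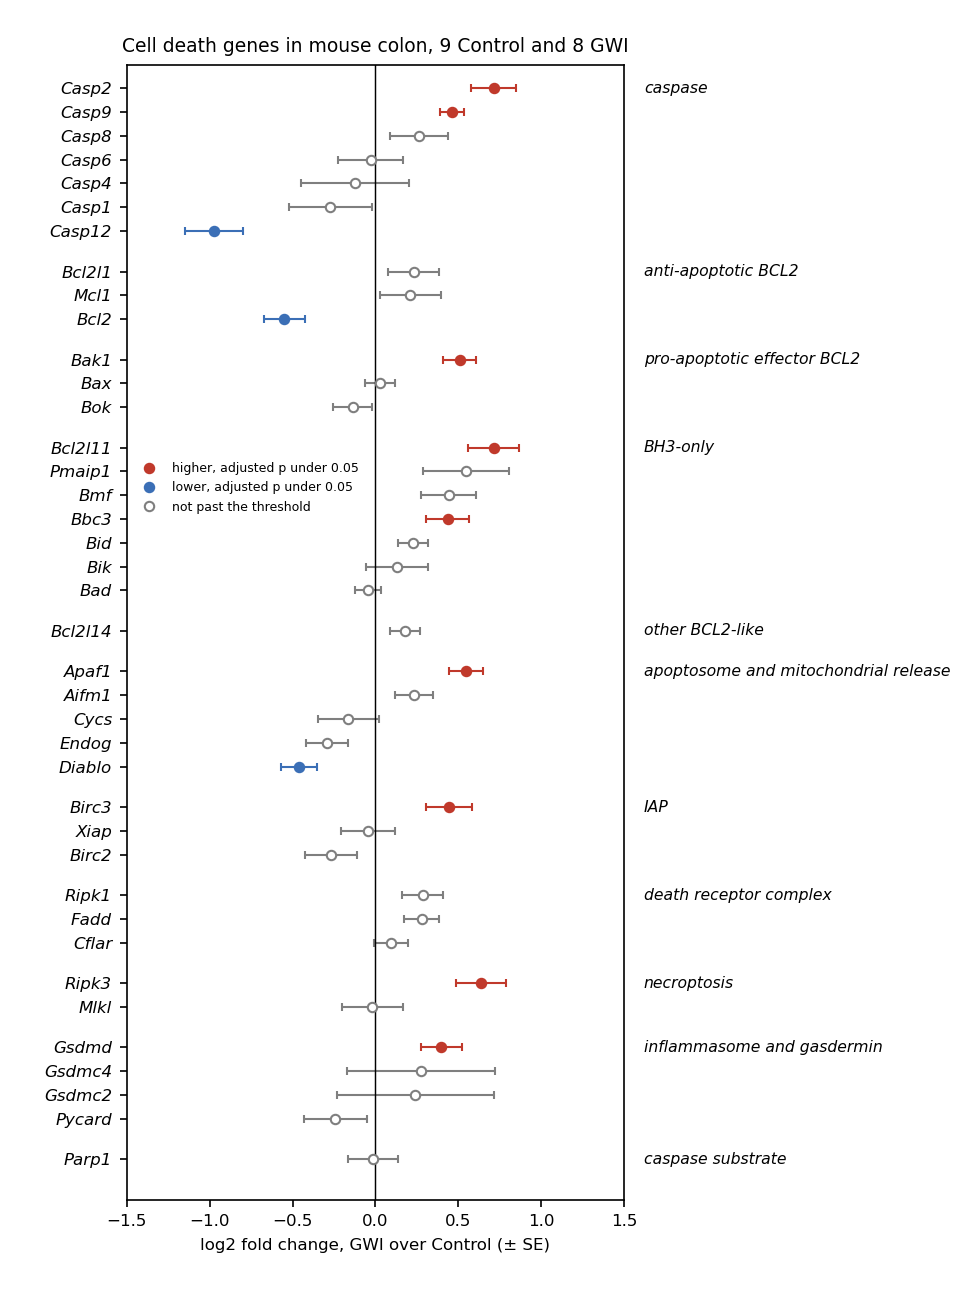
Log2 fold change of GWI over Control (x axis, ± SE, 9 Control and 8 GWI mice) for the 39 tested members, grouped by role; filled red points were called higher, filled blue points lower and open points were not called. The values run from -0.97 for Casp12 to 0.71 for Casp2, with called genes in 8 of the 11 roles listed.

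The count depended on single Control mice. Without Control 1, 18 of 39 members were called (34.2% of all genes), and without Control 9 the number was 16 (31.9%). With Control 1 and Control 9 both left out it was 22 (39.3%), made of 18 higher and 4 lower (19.7% and 19.6% of all genes). Leaving out Control 6 and Control 7 gave 9 (19.6%), and leaving out all 4 mice gave 19 (34.6%). These pairs and the group of 4 were chosen after seeing the data. In every one of the 29 other fits, Casp9, Casp12, Bcl2, Bak1, Bcl2l11, Apaf1 and Ripk3 were called in the same direction.

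Of the 7 caspases, 2 rose, 1 fell and 4 were not called, beside 13.4% higher and 13.5% lower among all tested genes. Casp9, the initiator caspase of the apoptosome (chromosome 4, 141793612 to 141815976, GRCm38), lay at 16.3 to 22.5 CPM in Control (median 20.7) and at 26.0 to 30.1 CPM in GWI (median 27.1). All 8 GWI mice were above every Control mouse. The means were 20.2 ± 1.83 CPM (SD, n = 9) and 27.8 ± 1.72 CPM (SD, n = 8), and the log2 fold change was 0.46 ± 0.07 (edgeR adjusted p = 0.000732). Over the other fits it ranged from 0.42 to 0.48.

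Casp12, a caspase linked in mice to stress of the endoplasmic reticulum, went the other way. Its level was 15.98 to 38.2 CPM in Control (median 18.5) and 8.71 to 14.5 CPM in GWI (median 10.4). Every GWI mouse was below every Control mouse, and Control 9 had the highest value. Its log2 fold change was -0.97 ± 0.17 (edgeR adjusted p = 0.00141), the largest in size among the tested members.

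Casp2, an initiator caspase activated on the PIDDosome, was at 25.0 to 51.6 CPM in Control (median 31.3) and 43.5 to 70.3 CPM in GWI (median 52.4). Only Control 9 reached into the GWI range. GWI over Control gave a log2 fold change of 0.71 ± 0.14 (edgeR adjusted p = 0.00208). With the muscle minus epithelium covariate it was 0.30 and no longer called (edgeR adjusted p = 0.0952), with a range of 5.55e-05 to 0.0952 over all other fits.

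Casp1 and Casp4, which lie beside Casp12 in the genome, were not called. Casp1, which is activated by inflammasomes, was at 119 to 559 CPM in Control (median 171) and 143 to 204 CPM in GWI (median 183). The 559 CPM of Control 9 lay far above the other mice, and the GWI values were spread within the Control range. Its log2 fold change was -0.27 ± 0.25 (edgeR adjusted p = 0.429) with all mice and 0.049 ± 0.15 (edgeR adjusted p = 0.828) without Control 9. With the muscle minus epithelium covariate Casp1 was called lower (-0.96 ± 0.18, edgeR adjusted p = 0.00408), which no other fit gave.

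Casp4, the mouse caspase that senses cytosolic lipopolysaccharide, had 15.8 to 77.6 CPM in Control (median 22.2) and 22.5 to 55.8 CPM in GWI (median 28.4). Control 1 and Control 9 were above every GWI mouse, and all 8 GWI mice were above the Control median. This amounted to a log2 fold change of -0.12 ± 0.33 (edgeR adjusted p = 0.796), and 0.47 ± 0.21 without those 2 mice (edgeR adjusted p = 0.0802). Its sign was not stable, since limma-voom with all mice gave 0.10 ± 0.31, and over the other fits it ran from -0.53 to 0.48.

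Casp6, an executioner caspase, had 17.6 to 69.7 CPM in Control (median 39.2) and 23.8 to 48.8 CPM in GWI (median 43.0). The groups overlapped throughout (log2 fold change -0.029 ± 0.19, edgeR adjusted p = 0.924, and from -0.41 to 0.12 over the other fits). Casp8, the initiator caspase of death receptors, had 70.0 to 188 CPM in Control (median 90.5) and 96.1 to 148 CPM in GWI (median 126). All 8 GWI mice were above the Control median, and Control 9 was above all of them. The log2 fold change of 0.26 ± 0.17 was not past the threshold (edgeR adjusted p = 0.263), while without Control 9 it was 0.42 ± 0.14 (edgeR adjusted p = 0.0316). Its direction turned with the muscle minus epithelium covariate (-0.31 ± 0.12, edgeR adjusted p = 0.0641).

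Within the BCL2 family, the founding anti-apoptotic gene fell while an effector and 2 BH3-only genes rose. Bcl2, which holds BAX, BAK and BH3-only proteins in check, was at 21.7 to 43.3 CPM in Control (median 31.2) and 18.7 to 26.4 CPM in GWI (median 19.9). In 6 of 8 GWI mice it was below every Control mouse, and 7 of 9 Control mice were above every GWI mouse. The log2 fold change was -0.55 ± 0.12 (edgeR adjusted p = 0.00508). The other anti-apoptotic genes, Bcl2l1 (BCL-XL) and Mcl1, had log2 fold changes of 0.23 ± 0.15 and 0.21 ± 0.18 and were not called. For both, Control 1 was the highest of all mice, at 90.5 CPM for Bcl2l1 and 611 CPM for Mcl1. Without it Bcl2l1 was higher in GWI by 0.36 ± 0.13 (edgeR adjusted p = 0.038) and Mcl1 by 0.38 ± 0.14 (edgeR adjusted p = 0.0399) on the log2 scale. Mcl1 fell to 0.087 ± 0.17 without GWI 5, its highest GWI mouse, and Bcl2l1 was at 0.55 ± 0.21 with the muscle minus epithelium covariate (edgeR adjusted p = 0.0623).

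Bak1, a pore-forming effector of the mitochondrial outer membrane, was at 71.7 to 129 CPM in Control (median 111) and 122 to 178 CPM in GWI (median 150.2). In 7 of 8 GWI mice the level exceeded every Control value, and Control 1 alone reached the lowest GWI mouse. Its log2 fold change was 0.51 ± 0.10 (edgeR adjusted p = 0.00244). Of its annotated exon length, 25.5% overlaps Ggnbp1 on the opposite strand, and reads of the pair could not be separated here because the strand setting of the counting is not given in the sources used. Its partner Bax was nearly level between groups, with 40.6 to 63.8 CPM in Control, 47.7 to 61.2 CPM in GWI and a log2 fold change of 0.026 ± 0.09. Bok, a further effector, was at -0.14 ± 0.12 and not called (-0.22 to 0.22 over the other fits).

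Of the 7 BH3-only genes, 2 were called and 6 had positive log2 fold changes, beside 26.8% called and 44.8% positive among all tested genes. Bcl2l11 (BIM) was at 6.12 to 14.2 CPM in Control (median 8.43) and 12.3 to 20.3 CPM in GWI (median 15.0). All 8 GWI mice were above the Control median and 6 above every Control mouse, with Control 1 and Control 2 inside the GWI range. GWI over Control gave a log2 fold change of 0.71 ± 0.15 (edgeR adjusted p = 0.00444).

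Bbc3 (PUMA), which binds all anti-apoptotic relatives of BCL2, was at 6.64 to 12.7 CPM in Control (median 8.57) and 9.75 to 15.0 CPM in GWI (median 12.4). The groups overlapped more than for Bcl2l11, with 3 GWI mice above every Control mouse and 5 Control mice below every GWI mouse. This amounted to a log2 fold change of 0.44 ± 0.13 (edgeR adjusted p = 0.0204). Bbc3 was not called without Control 6 and Control 7 (0.39 ± 0.14, edgeR adjusted p = 0.061) or without Control 1, 6, 7 and 9 (0.36 ± 0.16, edgeR adjusted p = 0.0862). Nor was the gene called with the small intestine covariate (0.39 ± 0.14, edgeR adjusted p = 0.0599). Its adjusted p ranged from 0.00529 to 0.0862 over the other fits.

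The BH3-only genes Bmf, Pmaip1 and Bid had log2 fold changes of 0.44 ± 0.17, 0.55 ± 0.26 and 0.23 ± 0.09, and none passed the threshold in edgeR (adjusted p = 0.0549, 0.119 and 0.0692). With all mice, DESeq2 called Bmf (adjusted p = 0.0419) and Bid (adjusted p = 0.0451), and limma-voom called Pmaip1 (adjusted p = 0.0478). In edgeR, Bmf was called without Control 9 (0.52 ± 0.16, edgeR adjusted p = 0.0228), but was at 0.24 ± 0.21 with the muscle minus epithelium covariate (edgeR adjusted p = 0.419), and Bid was called without Control 1 (0.26 ± 0.09, edgeR adjusted p = 0.0458). Pmaip1 (NOXA) was highest of all mice in Control 1 (36.3 CPM, beside 9.09 to 16.7 CPM in the other Controls), and without this mouse it was called (0.85 ± 0.17, edgeR adjusted p = 0.00148). Bik (0.13 ± 0.19, and -0.037 to 0.56 over the other fits) and Bad (-0.045 ± 0.08) were not called. The BCL2-like gene Bcl2l14 was at 0.18 ± 0.09 and not called. Bcl2l15 had 78 counts in Control 6, 150 in Control 7 and 0 to 8 in every other mouse, the same 2 mice that carried the small intestine markers.

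Ratios within a mouse were chosen after the values were seen and were not tested. Bcl2 was called lower and Bcl2l11 and Bak1 higher, so their ratios restate these calls. Bcl2 is 1 of 3 anti-apoptotic members, and Bcl2l1 and Mcl1 had positive log2 fold changes (0.23 and 0.21, not called). The Bax count over the Bcl2 count was 1.36 to 2.501 in Control (median 1.78) and 1.81 to 3.16 in GWI (median 2.68). For Bcl2l11 over Bcl2 the ratio was 0.194 to 0.5698 in Control (median 0.300) and 0.5700 to 0.869 in GWI (median 0.763). All 8 GWI mice were above every Control mouse in this ratio, although Control 1 nearly reached the lowest of them. The Bak1 count over the Bcl2 count was 1.66 to 5.94 in Control (median 3.63). In GWI it was 4.63 to 9.37 (median 7.93), with 7 mice above every Control mouse. How often other gene pairs separate in this way was not examined.

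**Figure D2:**
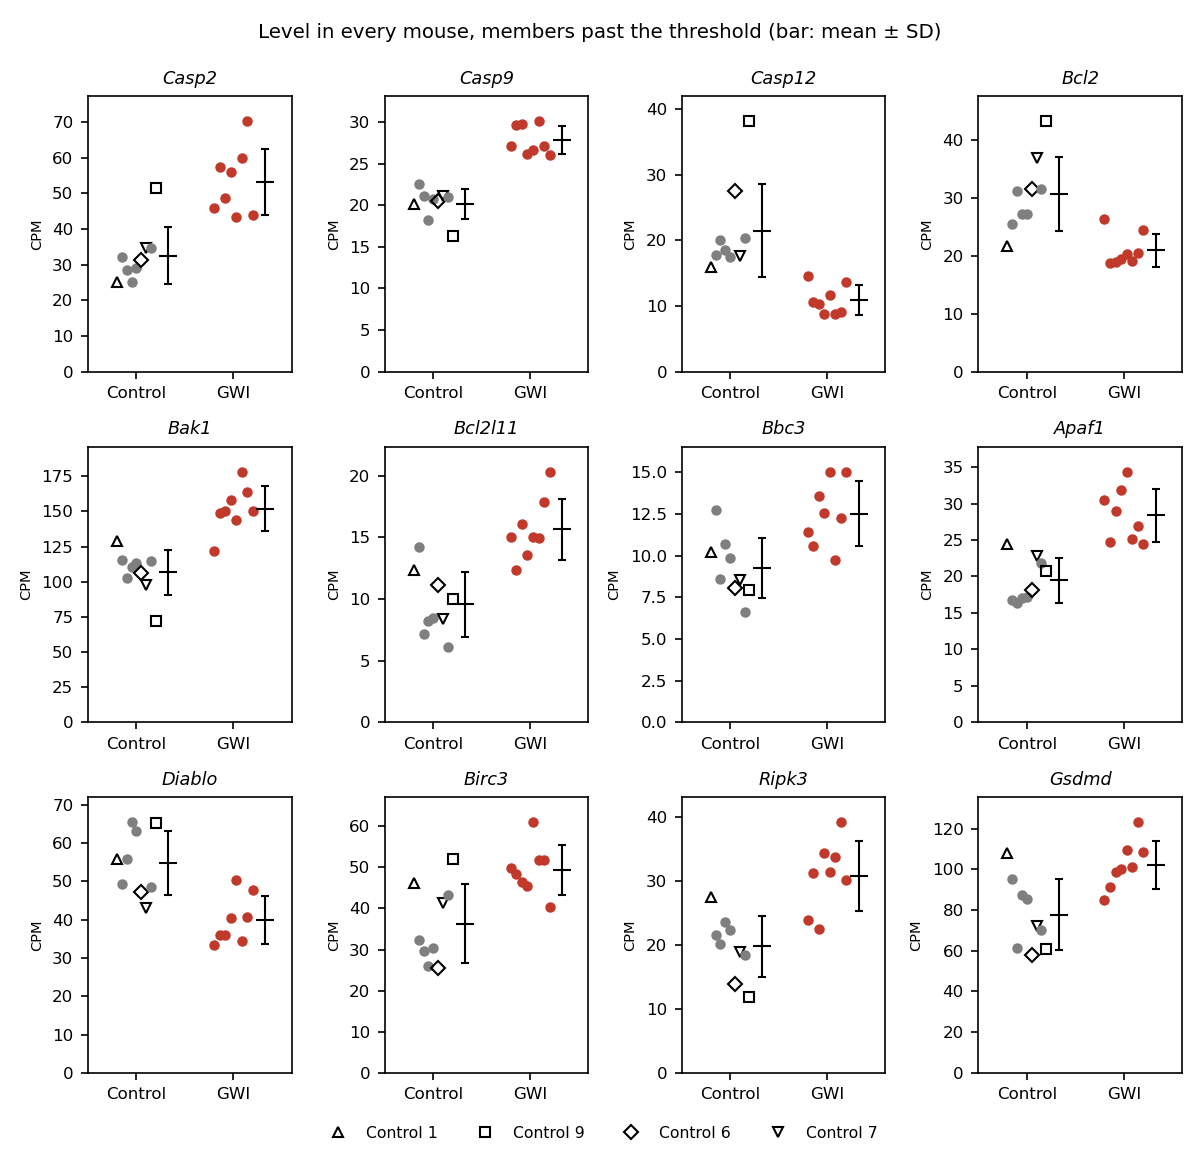
CPM (y axis, from 0) in each of the 9 Control and 8 GWI mice for the 12 called members, with the mean ± SD beside the points and open black symbols for Control 1, 6, 7 and 9. Casp9 and Casp12 have no overlap between groups, and Control 9 has the highest Control value for Casp2, Casp12, Bcl2, and Birc3.

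In the apoptosome and among the proteins released from mitochondria, Apaf1 rose and Diablo fell. Apaf1, the scaffold of the apoptosome (chromosome 10, 90989311 to 91082770), was at 16.3 to 24.5 CPM in Control (median 18.1) and 24.5 to 34.4 CPM in GWI (median 28.0). The groups met only at the edge, where Control 1 lay slightly above GWI 8. The log2 fold change was 0.55 ± 0.10 (edgeR adjusted p = 0.00203), so both APAF1 and caspase-9 transcripts were higher while cytochrome c (Cycs) was not called (-0.16 ± 0.18, and 0.039 ± 0.12 without Control 9). It was called lower with the muscle minus epithelium covariate (-0.67 ± 0.16, edgeR adjusted p = 0.00697). Cycs had its highest value in Control 9, at 782 CPM, and 24.7% of the 100-base stretches of its transcript also occur in the pseudogene Gm10053, which makes its count uncertain.

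Diablo (SMAC), which relieves caspases from inhibition by IAPs, was at 43.0 to 65.5 CPM in Control (median 55.8) and 33.4 to 50.3 CPM in GWI (median 38.3). In 6 of 8 GWI mice it was below every Control mouse. Its log2 fold change was -0.46 ± 0.11 (edgeR adjusted p = 0.00668), and -0.39 with the muscle minus epithelium covariate, where it was not called (edgeR adjusted p = 0.0564). Its adjusted p was between 0.000536 and 0.0564 over the other fits. Other annotated genes, 2 of them on the opposite strand, cover 40.9% of its exon length, so part of its count is uncertain. Aifm1 (0.23 ± 0.11) and Endog (-0.29 ± 0.13), which encode mitochondrial proteins that act on nuclear DNA in apoptosis, were not called with all mice. Endog was called lower without Control 9 (-0.33 ± 0.11, edgeR adjusted p = 0.0345) and without GWI 8. With the muscle minus epithelium covariate Endog was at 0.0033 ± 0.16 and Aifm1 at 0.0095 ± 0.15. Of the exon length of Endog, 35.7% is shared with Spout1, which runs in the other direction, and its count is uncertain for this reason.

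Of the 3 inhibitor of apoptosis genes, only Birc3 was called, beside 26.8% of all tested genes. Birc3 (cIAP2), a ubiquitin ligase of the TNF receptor complex, was at 25.6 to 51.9 CPM in Control (median 32.4) and 40.3 to 61.0 CPM in GWI (median 49.1). The groups overlapped, with 4 Control mice inside the GWI range. GWI over Control gave a log2 fold change of 0.44 ± 0.14 (edgeR adjusted p = 0.0265). It was 0.10 ± 0.15 with the muscle minus epithelium covariate (edgeR adjusted p = 0.636) and 0.41 ± 0.14 without Control 6 and Control 7 (edgeR adjusted p = 0.0538), and was called in neither, nor with the small intestine covariate (edgeR adjusted p = 0.0679). Over the other fits its adjusted p ran from 0.00181 to 0.636. Birc2, which lies near it on chromosome 9, was at -0.27 ± 0.16 and Xiap at -0.044 ± 0.16, both with their highest value in Control 9. Without that mouse they were at -0.098 ± 0.10 and 0.14 ± 0.09. With the muscle minus epithelium covariate both were called lower (-0.61 ± 0.16 and -0.53 ± 0.13, edgeR adjusted p = 0.0117 and 0.00958).

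The death receptor adaptors were not called by edgeR in the fit of all mice. Fadd was at 0.28 ± 0.10 (edgeR adjusted p = 0.0545), Ripk1 at 0.29 ± 0.12 (edgeR adjusted p = 0.0897) and Cflar, the caspase-8 inhibitor that lies near Casp8 on chromosome 1, at 0.093 ± 0.10 (edgeR adjusted p = 0.505). Ripk1 was called without Control 9, its highest Control mouse (0.36 ± 0.12, edgeR adjusted p = 0.0298), and Cflar without Control 1 and Control 9 (0.22 ± 0.07, edgeR adjusted p = 0.0232). The muscle minus epithelium covariate turned Ripk1 (-0.098 ± 0.11) and Cflar (-0.065 ± 0.13), which were not called there. Fadd lay near the threshold. It was called with all mice by DESeq2 (0.28 ± 0.11, adjusted p = 0.036) and limma-voom (0.29 ± 0.10, adjusted p = 0.0478), was called by edgeR without Control 8 (0.31 ± 0.11, adjusted p = 0.0357) and was lowest without Control 1, 6, 7 and 9 (0.11 ± 0.07, adjusted p = 0.255).

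Ripk3, the kinase that triggers necroptosis, was at 11.9 to 27.4 CPM in Control (median 20.2) and 22.5 to 39.2 CPM in GWI (median 31.3). In 6 of 8 GWI mice it was above every Control mouse, and 7 of 9 Control mice were below every GWI mouse. This amounted to a log2 fold change of 0.64 ± 0.15 (edgeR adjusted p = 0.00646). Mlkl, the pore-forming protein that RIPK3 phosphorylates, had 15.9 to 37.9 CPM in Control and 15.6 to 32.7 CPM in GWI, with a log2 fold change of -0.017 ± 0.19 (edgeR adjusted p = 0.954, and -0.33 to 0.066 over the other fits). Parp1, a nuclear enzyme cut by executioner caspases, was also not called (-0.014 ± 0.15, and -0.12 to 0.34 over the other fits).

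Gsdmd, the pore-forming target of inflammatory caspases (chromosome 15, 75862327 to 75867408), was at 57.9 to 108 CPM in Control (median 72.0) and 85.2 to 123 CPM in GWI (median 101). All 8 GWI mice were above the Control median, and 5 Control mice were below every GWI mouse. The log2 fold change was 0.40 ± 0.12 (edgeR adjusted p = 0.0242). This call was lost without GWI 7 (0.36 ± 0.13, edgeR adjusted p = 0.0548), without Control 6 and Control 7 (0.33 ± 0.13, edgeR adjusted p = 0.0735), with the small intestine covariate (0.32 ± 0.13, edgeR adjusted p = 0.0768) and with the muscle minus epithelium covariate (0.42 ± 0.18, edgeR adjusted p = 0.0917), and the adjusted p over the other fits ran from 0.00434 to 0.0917. Pycard (ASC), the adaptor between inflammasome sensors and caspase-1, was not called (-0.24 ± 0.19) and was highest in Control 9, at 294 CPM. Without Control 9 its log2 fold change was -0.049 ± 0.14, and with the muscle minus epithelium covariate it was called lower (-0.67 ± 0.19, edgeR adjusted p = 0.0150).

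The gasdermin C genes Gsdmc2 and Gsdmc4, which are expressed in intestinal epithelium, had the highest mean level per exon length over all 17 mice, which Control 1 raised. Gsdmc2 was at 122 to 1810.1 CPM in Control (median 218) and 260.1 to 775 CPM in GWI (median 497). Gsdmc4 was at 178 to 2064 CPM in Control (median 299) and 329 to 1059.9 CPM in GWI (median 597). In both genes a single mouse, Control 1, was above all others, with 28653 counts for Gsdmc2 and 32666 for Gsdmc4, and all 8 GWI mice were above the Control median. The log2 fold changes were 0.24 ± 0.47 and 0.27 ± 0.45 with all mice (edgeR adjusted p = 0.721 and 0.663). Without Control 1 they were 1.06 ± 0.27 and 0.89 ± 0.32 (edgeR adjusted p = 0.00599 and 0.0389), and without Control 1 and Control 9 they were 1.17 ± 0.27 and 1.13 ± 0.29 (edgeR adjusted p = 0.0032 and 0.00647). With all mice limma-voom gave 0.73 ± 0.43 and 0.64 ± 0.42, not called. Other fits lowered them, to 0.068 ± 0.51 and 0.11 ± 0.49 without Control 6 and Control 7, and to -0.16 ± 0.70 and -0.27 ± 0.60 with the muscle minus epithelium covariate, and neither gene was called there. Why Control 1 differed was not tested.

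In every mouse Gsdmc4 had more counts than its paralog Gsdmc2. The Gsdmc2 count over the Gsdmc4 count lay between 0.473 (Control 9) and 0.877 in Control (median 0.687). In GWI it lay between 0.633 and 0.897 (median 0.738). Of the 100-base stretches of the longest coding transcripts, 28.6% for Gsdmc2 and 20.2% for Gsdmc4 also occur in other genes, mostly Gsdmc3, so their counts of uniquely mapped reads are uncertain.

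**Figure D3:**
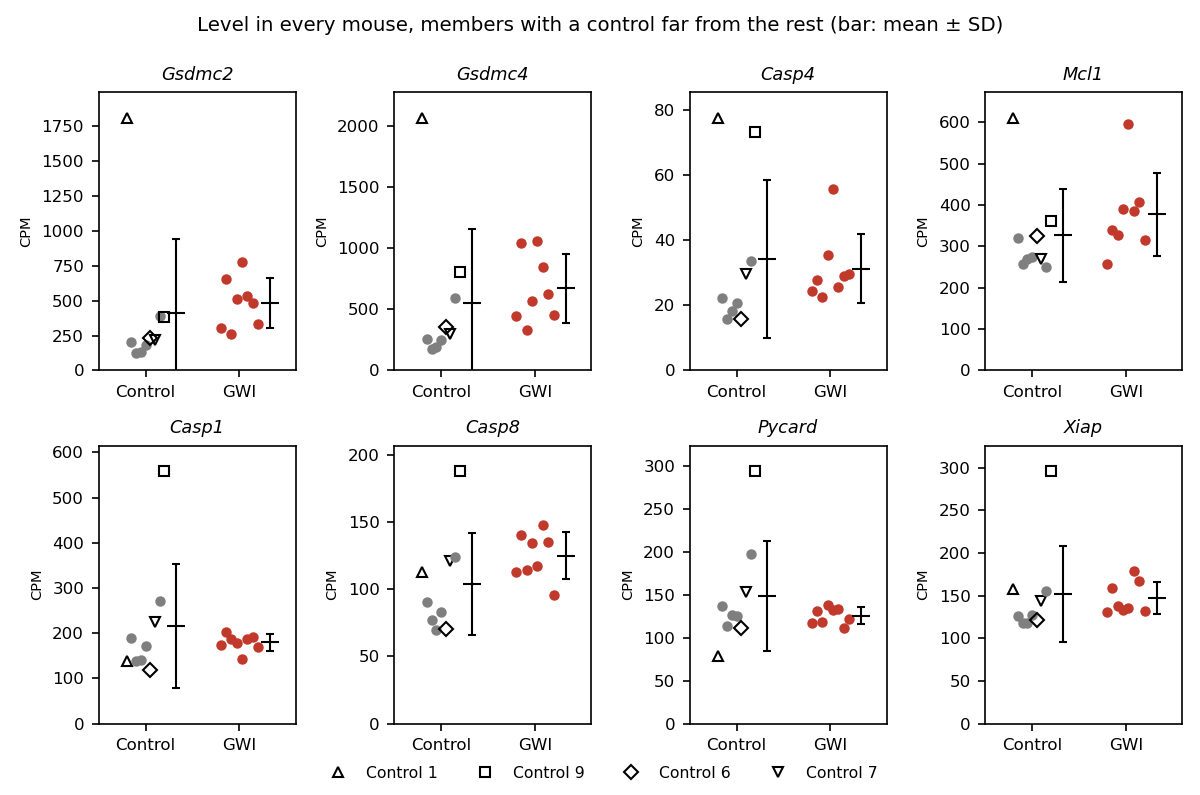
CPM (y axis, from 0) in each of the 9 Control and 8 GWI mice for 8 members chosen after their values were seen, with the mean ± SD beside the points (bars cut at 0 for the Gsdmc genes) and open black symbols for Control 1, 6, 7 and 9. Control 1 is the highest mouse for Gsdmc2, Gsdmc4, Casp4 and Mcl1, and Control 9 for Casp1, Casp8, Pycard and Xiap.

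Levels of different genes were compared per kilobase of annotated exon, as the mean CPM over all 17 mice. Gsdmc4 (292 CPM per kb), Gsdmc2 (191), Casp1 (133), Cycs (108) and Mcl1 (103) ranked highest. Single mice raised these means, Control 1 those of Gsdmc2, Gsdmc4 and Mcl1, and Control 9 those of Casp1 and Cycs. Among initiator caspases, Casp8 (39.4 CPM per kb) stood well above Casp2 (5.99) and Casp9 (4.57). Gsdmd was at 37.5 CPM per kb and Pycard at 36.3. The called BCL2 family genes other than Bak1 (53.2 CPM per kb) were low, with Bbc3 at 5.08, Bcl2 at 2.85 and Bcl2l11 at 1.55 CPM per kb, and Apaf1 at 2.62. Most called members thus came from the lower part of the order, and the 5 most abundant genes were all uncalled in the edgeR fit of all mice without a covariate.

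Several members lie close together in the genome. Casp1, Casp4 and Casp12 lie in this order on chromosome 9 between positions 5298517 and 5373032 of GRCm38, and Casp12 alone of the 3 was called. Casp8 and Cflar lie near each other on chromosome 1, and Birc2 and Birc3 on chromosome 9, where Birc3 alone of the pair was called.

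Promoter sequence from RefSeq (GRCm38.p6) matched 35 of the 40 members and 11 of the 12 called ones. The 250 bases before each start were searched on both strands for 3 motifs, chosen after the values were seen: TGTTTAC (the core letters bound by forkhead factors), GGGCGG (the GC box) and CACGTG (the E-box). The first occurs in 3.16% of 32817 such windows and in 4 of the 48 windows of tested members. By gene these are 3 of 34 tested members, since 2 of the windows overlap and hold the same site of Casp4, which was not called. The other windows, 2 of the 14 windows of called members, belong to the BH3-only genes Bcl2l11 and Bbc3. GGGCGG occurs in 32.7% of all windows, in 25 of the 48 windows of tested members (52.1%) and in 11 of the 14 windows of called members. CACGTG occurs in 6.02% of all windows, in 5 of the 48 windows of tested members and in 2 of the 14 of called members. A match of letters does not show that a factor binds. The windows of the 2 BH3-only genes are shown because they share the rarer motif, in capitals, and GC boxes in them are not marked. They lie at chr2:128125788-128126037 (plus strand, the window of 1 of 2 annotated Bcl2l11 starts) and chr7:16310011-16310260 (plus strand, the window of 1 of 3 annotated Bbc3 starts).

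Bcl2l11: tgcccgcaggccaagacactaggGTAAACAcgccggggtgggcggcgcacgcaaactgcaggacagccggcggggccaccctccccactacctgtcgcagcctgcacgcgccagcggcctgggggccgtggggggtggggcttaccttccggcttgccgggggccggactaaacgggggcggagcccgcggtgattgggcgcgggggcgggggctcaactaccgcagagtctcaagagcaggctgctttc
Bbc3: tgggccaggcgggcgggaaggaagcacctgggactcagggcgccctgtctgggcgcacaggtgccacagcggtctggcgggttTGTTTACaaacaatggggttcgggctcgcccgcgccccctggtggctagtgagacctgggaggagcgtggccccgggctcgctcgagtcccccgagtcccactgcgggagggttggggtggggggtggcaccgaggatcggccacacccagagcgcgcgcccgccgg

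The window of Casp9, the member with the smallest adjusted p, holds 4 GC boxes, in capitals, and lies at chr4:141793362-141793611 (plus strand).

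Casp9: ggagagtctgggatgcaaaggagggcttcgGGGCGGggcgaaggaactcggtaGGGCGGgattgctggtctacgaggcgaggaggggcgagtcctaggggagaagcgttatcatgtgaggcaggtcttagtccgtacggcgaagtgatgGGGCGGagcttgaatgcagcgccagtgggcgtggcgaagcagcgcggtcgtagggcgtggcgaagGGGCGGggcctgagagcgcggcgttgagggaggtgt

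Other genes of these pathways were also read, in lists chosen with earlier results of these data known. Of 69 further genes in 6 lists, 60 were tested, 11 were called higher and 9 lower, beside 13.4% higher and 13.5% lower among all tested genes. In death receptor signalling, 3 of 12 tested genes were higher and 0 lower, and all 12 log2 fold changes were positive, beside 44.8% of all tested genes. Those called were Rnf31 (0.54 ± 0.10, edgeR adjusted p = 0.0018) and Sharpin (0.28 ± 0.09, edgeR adjusted p = 0.0281), subunits of the linear ubiquitin ligase, and the TRAIL receptor Tnfrsf10b (0.70 ± 0.18, edgeR adjusted p = 0.00925). Of 13 tested inflammasome and pyroptosis genes, 4 were higher and 2 lower. The sensors Naip1 (0.89 ± 0.22, edgeR adjusted p = 0.00783) and Nlrp1b (0.52 ± 0.15, edgeR adjusted p = 0.0187) rose, and Nek7, a partner of NLRP3, fell (-0.44 ± 0.13, edgeR adjusted p = 0.0183). The cytokine genes Il1a and Il1b and the sensor Nlrp3 failed the filter on low counts.

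Among 10 tested further BCL2-related genes, 1 was higher and 4 lower, beside 13.4% and 13.5% of all tested genes. Bcl2l13 rose (0.41 ± 0.07, edgeR adjusted p = 0.00135), and it overlaps Bid on the opposite strand. Bnip3, a mitophagy receptor, fell (-0.62 ± 0.17, edgeR adjusted p = 0.0135), and so did Bcl2a1b (-1.08 ± 0.26, edgeR adjusted p = 0.00818), which had at most 38 counts in any mouse. Of 8 mitochondrial, IAP and nuclease genes, Birc6 rose (0.50 ± 0.09, edgeR adjusted p = 0.00116), and Birc5, an IAP of dividing cells (-0.54 ± 0.17, edgeR adjusted p = 0.0236), and Aven (-0.24 ± 0.08, edgeR adjusted p = 0.0323) fell. Of 6 necroptosis partners only the TLR adaptor Ticam1 was called (0.54 ± 0.14, edgeR adjusted p = 0.0104). Of 11 p53 targets, Sesn2 rose (0.97 ± 0.13, edgeR adjusted p = 0.000249) and its relative Sesn1 fell (-0.42 ± 0.13, edgeR adjusted p = 0.0258).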

How the data were processed

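The authors sequenced colon RNA of 17 mice. Trimmomatic 0.36 served for trimming and STAR 2.5.2b for alignment (GRCm38). Reads hitting a single gene were tallied by featureCounts, and the deposited table holds raw counts per gene symbol (tool versions from the submitters' processing notes). The annotation release and the strand setting are not given in the sources used here. All 17 columns matched a sample label, and 0 columns were left without a sample. Of the 23719 entries, 48 repeat a symbol and were kept as separate features.

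The counts were filtered with filterByExpr, scaled with TMM and tested with edgeR 4.0.16 (glmQLFit with robust = TRUE, glmQLFTest, R 4.3.3) with condition as the only term. P-values were adjusted by Benjamini-Hochberg over the 14146 tested genes, and SE was the absolute log2 fold change over the square root of F. The code was tested on simulated counts. Total counts of 16293537 to 20741212 limit precision for genes with few counts, and counting error is a lower limit of technical noise. The mice are separate samples by their labels. The members and the gene lists were chosen with earlier results of these data known. All 40 members are reported, with per-mouse values and tests for those called and for Casp1, Casp4, Casp6, Casp8, Gsdmc2 and Gsdmc4, and at most 3 called genes per pathway list, those with the smallest p. Exon lengths, positions and transcripts came from GENCODE release M21.

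Alternatives were median-of-ratios factors, library size alone, DESeq2 1.42.0, limma-voom 3.58.1, other filters, the replicate block, covariates of marker lists, each mouse left out in turn and other thresholds. Fits leaving out Control 1, 6, 7 or 9 together were added after seeing the data. Reads were not analysed here. The lists are not complete, and some caspases and other genes of these pathways are not reported here.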

Additional observations from a re-analysis of the deposited data

Results flagged for a closer look

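In each group, the highest and the lowest mouse were compared with their nearest neighbour by the ratio of that gap to the range of the group (Dixon's ratio, 95% critical value). Among 80 groups (40 members in Control and in GWI), 18 had a mouse past this value. For normally distributed values, chance flags about 1 in 20 groups. The ratio was taken on CPM, which need not be normally distributed, so this rate may not hold here. Members share mice, so these are not independent.

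Control 9 accounted for 6 of them. Its levels were 559 CPM for Casp1, 51.6 CPM for Casp2, 188 CPM for Casp8, 782 CPM for Cycs, 296 CPM for Xiap and 80.1 CPM for Birc2, each the highest of the Control mice, and the nearest other Control mice were at 272, 34.7, 124, 452, 158 and 49.5 CPM. Control 1 accounted for 5, with 1810.1 CPM for Gsdmc2, 2064 CPM for Gsdmc4, 611 CPM for Mcl1, 90.5 CPM for Bcl2l1 and 36.3 CPM for Pmaip1. GWI 5 was the mouse that stood apart within GWI for 4 members, high for Casp4 (55.8 CPM), Mcl1 (596 CPM) and Pmaip1 (35.8 CPM) and low for Casp6 (23.8 CPM). Control 1 was also the highest Control mouse for Casp4, Mcl1 and Pmaip1.

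Single mice stood apart for a further 3 members. Control 7 had 8.28 CPM of Bcl2l15, with Control 6 next at 3.45 CPM. Control 3 was low for Bid (9.77 CPM), and GWI 8 was high for Bik (9.33 CPM). The causes of these differences were not tested.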

How the results depend on the processing

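The main counts were 9 members higher and 3 lower (13.4% and 13.5% of all genes). Leaving out each mouse in turn gave 8 to 15 higher, with 15 reached without Control 1, and 3 to 4 lower. In these fits 10.4% (without GWI 7) to 17.9% (without Control 1) of all genes were higher. Lower were 9.21% to 16.3%, with the same mice at the ends. The fits without several Control mice were chosen after seeing the data. Leaving out Control 1 and 9 together gave 18 higher (19.7% of all genes), and leaving out Control 1, 6, 7 and 9 gave 15 (18.2%). With the muscle minus epithelium covariate 6 were higher and 7 lower (11.2% and 15.3% of all genes), where Birc2, Casp1, Cycs, Pycard and Xiap were added to the lower ones. Where edgeR's unadjusted p had to be below 0.05 with an absolute log2 fold change past 1, both counts were 0. Such a p alone was found for 18 of the 39 members and 5851 of the 14146 tested genes. At the adjusted threshold DESeq2 gave 12 higher and 3 lower (11.1% and 12.3% of all genes) and limma-voom 11 and 3 (14.7% and 11.7%). All other alternatives kept each count within 1.5 times the main one.

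With the replicate block (replicates 1 to 8 of both groups, so that Control 9 is also left out), 7 members were higher and 3 lower, and Bbc3 (edgeR adjusted p = 0.0755) and Gsdmd (0.0735) were not called. Over all genes this fit called 1404 higher and 814 lower, beside 2272 and 2221 in the fit that leaves out Control 9 without a block. The deviations of same-numbered mice correlated between -0.506 and 0.115, so the numbers were not taken as pairs.

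None of the 12 called members changed sign in any alternative. Among 16 uncalled members, 51 values had the other sign. With the replicate block these were Casp1 (0.10), Casp4 (0.28), Casp6 (0.12), Cycs (0.054), Xiap (0.15) and Mlkl (0.0035), of which all but Mlkl also turned when Control 9 alone was left out. With limma-voom they were Casp4 (0.10), Casp6 (0.028), Xiap (0.0017) and Mlkl (0.013). The muscle minus epithelium covariate turned Casp8 (-0.31), Bax (-0.089), Bok (0.22), Endog (0.0033), Cflar (-0.065), Ripk1 (-0.098), Gsdmc2 (-0.16), Gsdmc4 (-0.27) and Parp1 (0.34), and the small intestine covariate turned Parp1 (0.085). Without Control 1 and 9 the turned values were Casp4 (0.47) and Xiap (0.17), without Control 6 and 7 Bax (-0.0061) and Parp1 (0.087), and without all 4 Casp4 (0.48), Bax (-0.043) and Xiap (0.18). With 1 mouse left out at a time, log2 fold changes ranged from -0.35 to 0.049 for Casp1, -0.29 to 0.15 for Casp4, -0.12 to 0.095 for Casp6, -0.0049 to 0.065 for Bax, -0.037 to 0.21 for Bik, -0.22 to 0.039 for Cycs, -0.089 to 0.14 for Xiap, -0.081 to 0.066 for Mlkl and -0.11 to 0.052 for Parp1. The cause was not tested.

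Bcl2l15 was tested only in the fits without the filter. On counts mostly from Control 6 and 7, edgeR called it lower (-3.73 ± 1.22, adjusted p = 0.0428) and DESeq2 did not (-2.36 ± 1.09, adjusted p = 0.0845). Without the filter and in DESeq2, which test more genes of low count, the median log2 fold change of all genes was -0.10, beside -0.056. Of the tested members, Bik, Bbc3, Bcl2l11 and Bmf had the lowest counts in a mouse, at 54, 114, 118 and 147.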

Other observations

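Markers of other cell types were read beside the cell death genes, as summed CPM (mean ± SD, 9 Control and 8 GWI mice). The crypt and cycling list, led by Mki67, was at 415 ± 151 in Control and 357 ± 104 in GWI, with 0 of 5 genes called. Macrophage markers, led by C1qa, were at 55.2 ± 16.03 and 40.7 ± 6.22, and Mrc1 alone of the 8 was called, lower. T and NK cell markers (Gzma most abundant, at 0 in some mice) were at 18.4 ± 8.70 and 13.5 ± 6.35 with 0 of 7 called. Neutrophil markers were near 0, at 2.47 ± 3.87 and 1.90 ± 1.55, led by Ly6g, with S100a8, S100a9 and Cxcr2 at 0 in some mice. Control 1 was at 12.6 and the other Control mice were at 0.443 to 2.61. Pancreas markers were at 0.237 ± 0.359 and 0.0990 ± 0.0907, led by Pnliprp1, with all 5 at 0 in some mice and 1 at 0 in all.

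Enteric neuron markers, led by Uchl1, were at 241 ± 146 in Control and 165 ± 70.0 in GWI, with negative log2 fold changes for 7 of 7 genes and 0 called. Endothelium (Pecam1) was at 81.7 ± 31.6 and 60.4 ± 17.1, with Kdr called lower, and fibroblast markers (Dcn) were at 320.4 ± 110.5 and 266 ± 94.5, with Dcn called lower. Interferon response genes, led by Irf1, were at 329 ± 73.5 and 433 ± 49.2, with Irf7 and Irf1 called higher and Ifit3 and Gbp2 lower. Type 2 response genes were at 1695 ± 2481 and 1738 ± 740.2, of which Clca1 made up 92.0%, with Il4 called higher and Il33 lower, and Il5 and Il13 at 0 in some mice. Control 1 carried much of the Control sum of the type 2 list, at 8287, with the other Control mice at 584 to 1212. The part of these lists in the cell death results was not tested.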
